A study of Mus musculus with 7 samples.

Results

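Fibroblast growth factors (FGFs) are secreted signals that bind cell-surface receptor tyrosine kinases, and most of them need heparan sulfate chains to hold ligand and receptor together. Glypicans such as GPC6 are membrane-anchored carriers of such chains. Binding of an FGF pairs the receptors, which phosphorylate the adaptor FRS2 and switch on the RAS-MAPK cascade, the PI3K pathway and phospholipase C gamma. In the brain this family is known for its part in neural progenitor growth and in the biology of astrocytes and oligodendrocytes. The genes described here were 9 in number, out of 19257 in the deposited table of normalized counts, and were picked by their symbols: the kinase receptors Fgfr1, Fgfr2, Fgfr3 and Fgfr4, the receptor-like Fgfrl1, which lacks the kinase domain, and the heparan-binding ligands Fgf1, Fgf2, Fgf9 and Fgf18. All 9 were in the table. Of these, 7 had a mean normalized count of at least 10 and entered the fit across genes, while Fgfr4 and Fgf18 stayed below that level.

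Brain tumors were started in mouse embryos of CD-1 and C57BL/6 backgrounds by in utero electroporation of progenitor cells at the lateral ventricle. Every animal, control or not, received a construct with Cas9 and guides that target tumor suppressors including Trp53 and Nf1, the latter a brake on RAS downstream of FGF receptors. The 3xCR group (3 tumors, replicates 2 to 4) has the genotype control, and the GPC6 group (4 tumors, replicates 1 to 4) in addition overexpressed GPC6 from a piggyBac transposon, whose promoter and species of GPC6 are not given in the sources used here. Tissue was taken at the disease endpoint under a fluorescence microscope as biological replicates, and the labels give neither age nor sex. No brain without a tumor was among the libraries. The comparison asks what added GPC6 changed in the tumor tissue.

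The libraries held 7197692 to 18879762 reads on genes, with a median of 10566182. Gpc6 checked the labels: it had 126 to 226 normalized counts in the 3xCR libraries and 675, 263, 3434 and 5084 in GPC6 replicates 1 to 4, so that the library labelled GPC6 replicate 2 lay close to the 3xCR level. Some libraries stood apart in markers of cell types or of proliferation. GPC6 replicate 1 had a summed normalized count of 63246 over 10 neuron markers (4814 to 35341 in the others), 1025 over 6 hypothalamic markers (12.1 to 32.8) and 550 over 8 proliferation markers (4583 to 12440). 3xCR replicate 4 had 30024 over 9 markers of mural cells and fibroblasts, against 845 to 3551. Since these are bulk samples, fewer cells of a type and less RNA per cell cannot be told apart. The labels call the tissue brain and the cell type neural, and markers of neurons, astrocytes and oligodendrocytes were present in every library.

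Levels can be set side by side between genes only per length, so normalized counts were divided by the length of all annotated exons of the gene in kilobases (kb). On this scale Fgfrl1 had the highest mean level of the 9 genes, 488 normalized counts per kb over the 7 libraries. Fgfr3 followed with 139 and Fgfr1 with 117, and then came Fgf1 with 57.5 and Fgfr2 with 36.6. The other 4 genes were far below, with Fgf9 at 5.56, Fgf18 at 5.41, Fgf2 at 2.07 and Fgfr4 at 1.40. Fgfrl1 was above every kinase receptor per kb in 6 of 7 libraries, the exception being GPC6 replicate 1. Among the ligands, Fgf1, a ligand without a classical secretion signal that can bind all kinase receptors, was the abundant one.

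Several neighbours in this order did not differ beyond their spread. Fgfr3 exceeded Fgfr1 in 5 of 7 libraries with a mean log2 difference in level per kb of 0.070 ± 1.30 (SD, n = 7 libraries). The log2 difference between Fgf1 and Fgfr2 was 0.54 ± 0.94, and these neighbours changed places when the length of the longest transcript was used. Fgf9 and Fgf18 differed by -0.96 ± 1.48 on the log2 scale, with Fgf9 the higher in only 2 libraries although its mean was the higher. With the longest transcript Fgf9 was the higher in 5 of 7 libraries. For these log2 differences 1 was added to each normalized count, which weighs on counts as low as these. By contrast, Fgfr1 was above Fgf1 in 7 of 7 libraries (log2 difference 1.21 ± 0.88) and Fgfr2 was above Fgf9 in 7 of 7 (3.78 ± 1.73).

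**Figure D1:**
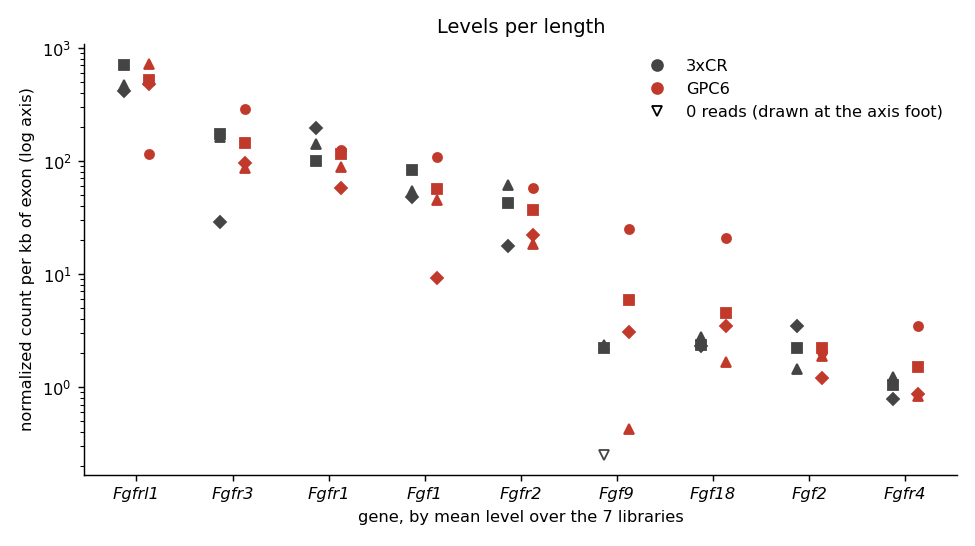
Normalized counts per kb of exon (log axis) of the 9 genes, ordered by their mean over the 7 libraries. Each point is 1 library, dark for 3xCR and red for GPC6, with the marker shapes circle, triangle, square and diamond for replicates 1 to 4, and the open triangle marks the library with 0 reads of Fgf9. Fgfrl1, Fgfr3, Fgfr1, Fgf1 and Fgfr2 lie above the remaining 4 genes by their means, and GPC6 replicate 1 is the low point of Fgfrl1 and the high point of Fgf9 and Fgf18.

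Fgfr1 (chr8:25513654-25575718 of GRCm38) is a receptor that neural progenitors use. In 3xCR replicates 2 to 4 its normalized counts were 1389, 983 and 1914. In GPC6 replicates 1 to 4 it had 1226, 865, 1142 and 567. The highest value was in 3xCR replicate 4 and the lowest in GPC6 replicate 4, and the groups overlapped. It was the steadiest of the receptors in the fit, as its SD within groups on the log2 scale was 0.49, close to the median of 0.50 over all 14782 genes tested. Its nearest genes in pattern were Inpp4b and Ppp1r15a, with root mean square differences of 0.137 and 0.145 in centred log2 value over the 7 libraries, against a median of 0.718 over the genes tested.

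Fgfr2 (chr7:130162451-133123350), a receptor that astrocytes and oligodendrocytes are known to carry, came to 635, 433 and 184 normalized counts in the 3xCR tumors, given from here on in the order of replicates 2 to 4. In the GPC6 tumors, in the order of replicates 1 to 4, it came to 590, 191, 383 and 228. Every GPC6 value lay between the lowest and the highest 3xCR value. Mt3 and Dio2 were the genes most like it, at distances of 0.0909 and 0.219.

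Fgfr3 (chr5:33721674-33737068), known in the brain from ventricular progenitors and astrocytes, had normalized counts of 1162, 1240 and 207 in 3xCR tumors. The GPC6 tumors had 2045, 620, 1025 and 679. Its low value in 3xCR replicate 4 and its high value in GPC6 replicate 1 were 9.87-fold apart, the widest range among the kinase receptors. The remaining 5 libraries lay between 620 and 1240 with the groups mixed. Folh1 and Psd2 were nearest to it, at 0.245 and 0.265.

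Fgfr4 (chr13:55152640-55168759), a receptor used mainly outside the brain, was close to absent, with 2 to 8 reads in each library and 34 in all. Its normalized counts were 4.38, 3.72 and 2.76 in the 3xCR libraries and 12.4, 2.96, 5.32 and 3.09 in the GPC6 libraries. The 8 reads of GPC6 replicate 1 have an exact Poisson interval of 3.45 to 15.8 at 95%, which covers counting error only. The groups overlapped (exact two-sided permutation p = 0.514, where the smallest p possible with 3 against 4 tumors is 0.057).

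Fgfrl1 (chr5:108692382-108706924) binds FGFs and heparan but carries no kinase. Normalized counts were 1289, 1974 and 1142 in 3xCR tumors, and 320, 2013, 1446 and 1328 in GPC6 tumors, so the groups overlapped. Its order of libraries was unlike that of the kinase receptors. GPC6 replicate 1 was the lowest of the 7 libraries for Fgfrl1 while it was the highest for Fgfr3 and Fgfr4 and second highest for Fgfr2. Per kb the ratio of Fgfrl1 to Fgfr1 was 0.927 in that library and 2.12 to 8.32 in the others. Wdr62 and E2f8 were nearest in pattern, at 0.138 and 0.140.

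**Figure D2:**
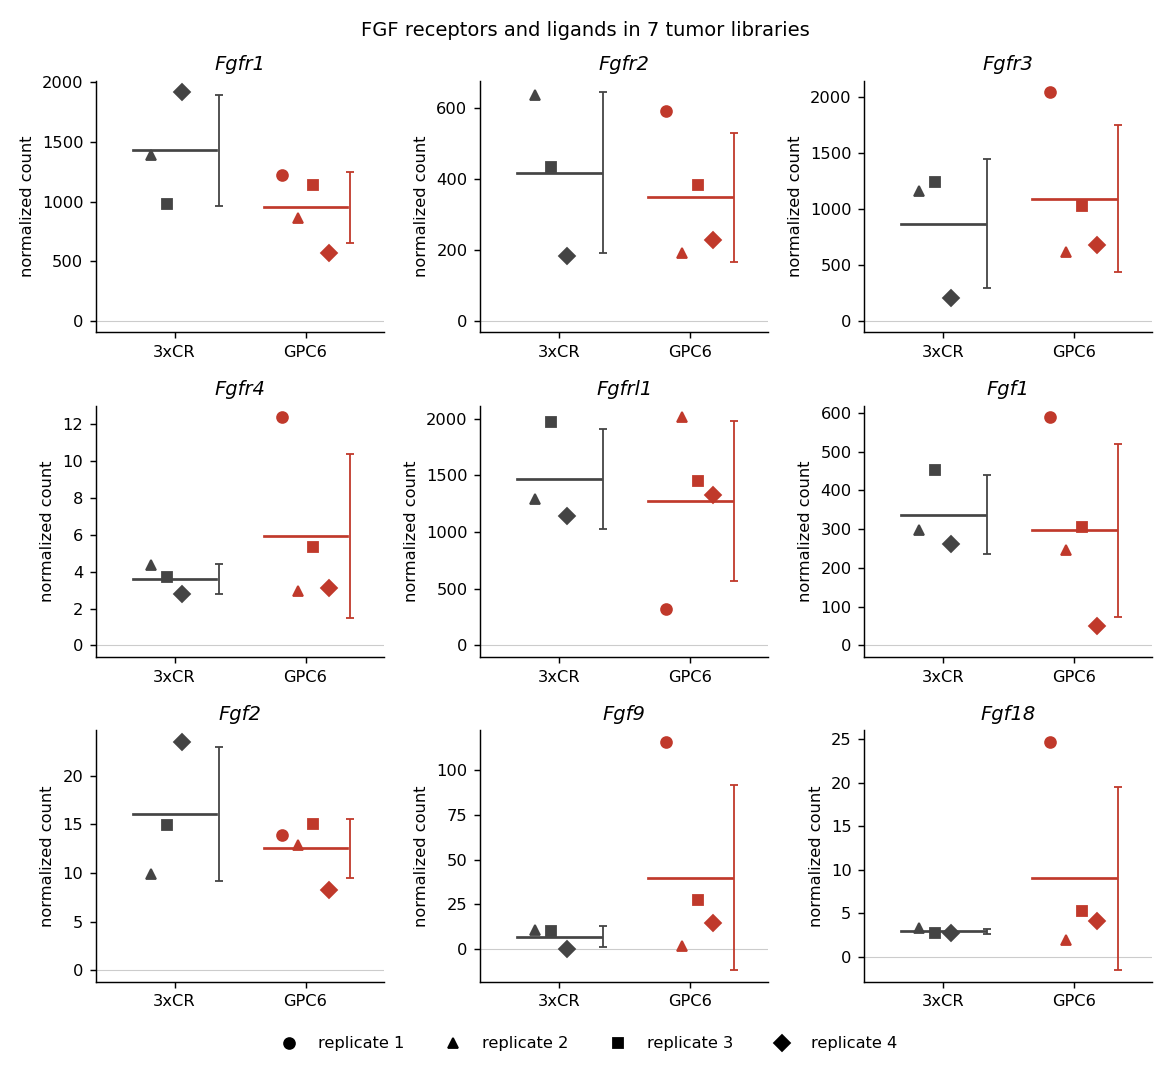
Normalized counts of each gene (vertical axis, linear, each panel with its own scale) in the 3 libraries of 3xCR and the 4 of GPC6 tumors. Points are libraries with the marker for the replicate number, horizontal lines are group means and error bars are 1 SD. The groups overlap in all 9 panels, and GPC6 replicate 1 (circle) is highest for Fgfr3, Fgfr4, Fgf1, Fgf9 and Fgf18 and lowest for Fgfrl1.

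The make-up of the kinase receptors was compared as the share of each in the summed level per kb of all 4. Fgfr3 took 44.4%, 54.9% and 12% in the 3xCR libraries, and 60.7%, 44.8%, 48.2% and 54.1% in the GPC6 libraries. Fgfr1 took 38.5%, 31.5% and 80.3% in the 3xCR libraries and 26.4%, 45.3%, 38.9% and 32.8% in the GPC6 libraries. Fgfr1 held most of the receptor message in 3xCR replicate 4, and less than Fgfr3 did in 5 of the other 6 libraries. Fgfr2 took 7.37% to 16.8% and Fgfr4 under 1% in each library (0.323% to 0.742%). The shares of Fgfr4 did not overlap, at 0.323% to 0.338% in 3xCR and 0.432% to 0.742% in GPC6 tumors, but rest on 2 to 8 reads a library. The normalized counts of Fgfr4 itself overlapped between the groups, while those of 6.32% of all genes tested did not.

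**Figure D3:**
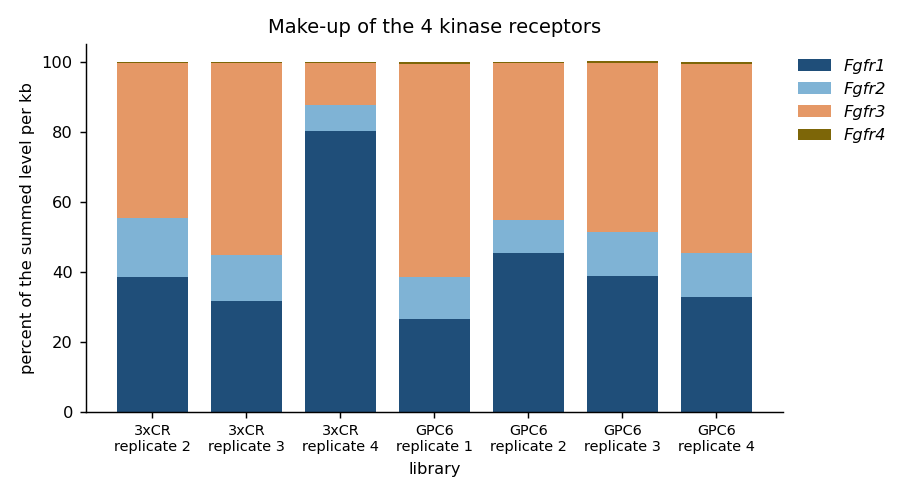
Share of each kinase receptor in the summed normalized count per kb of Fgfr1 to Fgfr4, in percent, with 1 bar per library. Fgfr1 takes 80.3% in 3xCR replicate 4 and 26.4% to 45.3% in the other 6 libraries, and Fgfr4 is barely visible.

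Of the ligands, Fgf1 had normalized counts of 297, 453 and 261 in 3xCR tumors and of 589, 245, 305 and 50.4 in GPC6 tumors. The 4 GPC6 tumors thus ranged 11.7-fold and enclosed the 3xCR values. Its SD within groups on the log2 scale was 1.18, above that of 86.9% of the genes tested. S1pr5 and Hapln2 were the genes most like it, at 0.158 and 0.300.

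Fgf2, a broad mitogen of neural progenitors and glioma cells, was represented by only 98 reads over all libraries. Its normalized counts were 9.87, 14.9 and 23.5 in the 3xCR libraries and 13.9, 12.8, 15.1 and 8.23 in the GPC6 libraries, so that the values of both groups interleaved. Thsd1 and Nostrin were nearest to it, at 0.115 and 0.148. Each library held 8 to 18 reads of Fgf2, and the 8 reads of GPC6 replicate 4 have an exact Poisson interval of 3.45 to 15.8.

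Fgf9, a ligand that neurons are known to make, had 10.96 and 10.2 normalized counts in the first pair of 3xCR libraries. In the remaining one, 3xCR replicate 4, it had 0 reads, and the limit set at 3 reads is 4.14 normalized counts in that library, for counting error only. The GPC6 tumors had 116, 1.98, 27.5 and 14.4. It entered the test through the GPC6 libraries, as its 3xCR mean was 7.06 ± 6.13 (SD, n = 3) against 40.0 ± 51.7 (SD, n = 4). GPC6 replicate 1 alone held 75 of the 153 reads. Nrsn1 and Kcnj9 were nearest in pattern, at 0.232 and 0.312. Fgf18 had 2 to 6 reads in each library other than GPC6 replicate 1, which had 16, and its normalized counts were 3.29, 2.79 and 2.76 in 3xCR and 24.7, 1.98, 5.32 and 4.12 in GPC6 tumors. The groups overlapped for Fgf9 and for Fgf18 (exact two-sided permutation p = 0.343 for Fgf18), and GPC6 replicate 1 was the highest library for both genes.

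None of the 7 genes in the fit passed the test of GPC6 against 3xCR tumors. The test was limma on log2(normalized count + 1), two-sided, with Benjamini-Hochberg adjustment over all genes tested. At an adjusted p under 0.05 it called 0 of 7 members, beside 0% of the 14782 genes tested, and at an unadjusted p under 0.05 it called 0 members beside 4.66% of all genes (2.74% higher and 1.92% lower in GPC6). The mean log2 value was higher in GPC6 tumors for 2 of the 7, Fgfr3 and Fgf9, beside 48.3% of all genes. Fgf9 had passed the filter only through its GPC6 values, which favours that direction. The groups did not overlap in 0 of the 7, beside 6.32% of all genes (2.8% higher and 3.52% lower). On the recovered reads, edgeR with TMM, edgeR with the deposited size factors, DESeq2 and voom also put 0 members under an unadjusted p of 0.05. Of all genes, 6.7%, 6.79%, 12.1% and 3.38% passed that level in these fits, and an adjusted p under 0.05 was reached by 0.0609% of them in DESeq2 and by 0 in the others. These p-values measure the spread between the sequenced tumors.

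The intervals of these differences were wide. Fgfr1 averaged 1429 ± 467 normalized counts (SD, n = 3) in 3xCR tumors against 950 ± 298 (SD, n = 4) with GPC6. Its log2 fold change was -0.60 with a 95% interval of -1.39 to 0.19 (limma adjusted p = 0.73). Fgfr2 had a log2 fold change of -0.23 (-1.45 to 0.99) and Fgfr3 one of 0.54 (-1.07 to 2.14). For Fgfrl1 the log2 fold change was -0.44 (-1.82 to 0.95). Among the ligands it was -0.59 for Fgf1 (-2.32 to 1.14), -0.29 for Fgf2 (-1.54 to 0.96) and 1.95 for Fgf9 (-1.28 to 5.18). Adjusted p-values of limma for these 6 genes were between 0.732 and 0.905. A log2 fold change of -1 lies within each of the 7 intervals, so the missing calls do not show that the groups were alike.

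The direction of several differences turned on 1 library. Without 3xCR replicate 4 the log2 fold change of Fgfr3 became -0.31 and that of Fgf2 0.010. Without GPC6 replicate 1 that of Fgfrl1 became 0.14, and without GPC6 replicate 4 that of Fgf1 became 0.11. Fgfr2 became 0.16 without 3xCR replicate 2 and 0.010 without GPC6 replicate 2. Fgf9 stayed positive but was 0.77 without 3xCR replicate 4 and 1.09 without GPC6 replicate 1. Since it entered the fit through the GPC6 libraries, its sign is no support for a difference. Fgfr1 was negative with each library left out, from -0.84 to -0.36, and became 0.023 when libraries were weighted.

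**Figure D4:**
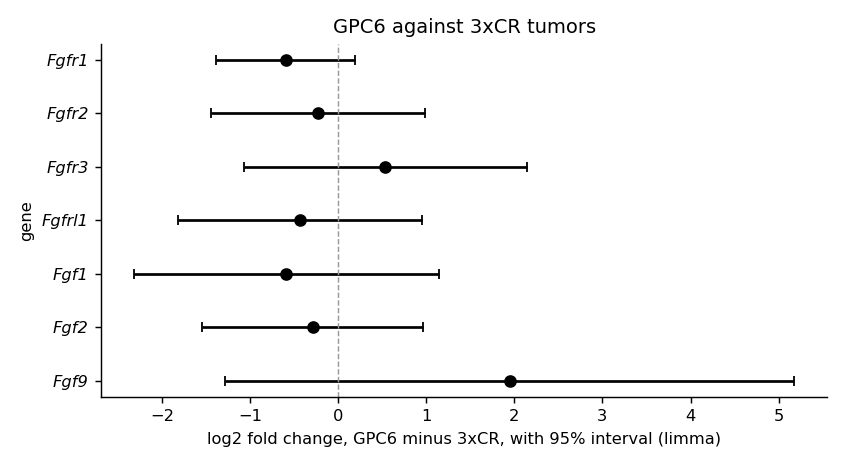
Log2 fold change on the log2(normalized count + 1) scale, GPC6 minus 3xCR, of the 7 genes in the fit, with the 95% interval of limma as horizontal bars. The dashed line marks no difference. Every interval spans 0, and that of Fgf9, from -1.28 to 5.18, is the widest.

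The variation of the members between tumors was set beside that of cell type markers. To score a marker list in a library, each gene's log2 value was centred on its mean and the centred values were averaged. The distance given here is the root mean square difference between a member's centred log2 values and such a score over the 7 libraries, a description chosen after the values were seen.

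Fgfr2 and Fgfr3 were both nearest to the list of 10 astrocyte markers among the 11 lists, at distances of 0.264 and 0.312 on the log2 scale, where their own root mean square deviations from a flat line were 0.696 and 0.971. They lay on the same side of their mean as the astrocyte score in 7 of 7 libraries. The astrocyte score was 0.76, 0.39 and -1.41 in 3xCR tumors, against 1.09, -0.70, 0.46 and -0.58 in GPC6 tumors. Thus 3xCR replicate 4, with the lowest Fgfr2 and Fgfr3, had a summed normalized count of 15531 over the astrocyte markers, against 27624 to 65775 in the other libraries.

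Fgf1 was nearest to the list of 9 oligodendrocyte markers, at 0.519 against 1.04 from a flat line. GPC6 replicate 4, where Fgf1 had 50.4 normalized counts, had the lowest sum of these myelin genes, 15858 against 24840 to 113919. Other libraries matched less well. The sum of 113919 was in GPC6 replicate 2, where Fgf1 had 245, and that of 24840 in GPC6 replicate 3, where it had 305. Fgf1 lay on the same side of its mean as this score in 5 of 7 libraries, and as the astrocyte score in 6. Fgf9 was nearest to the 10 neuron markers, at 0.675 against 2.05, and its extremes were the extremes of the neuron score, -2.34 in 3xCR replicate 4 and 2.73 in GPC6 replicate 1. It lay on the same side of its mean as the neuron score in 5 of 7 libraries, and as the astrocyte score in 6. Fgfrl1 was nearest to the 8 markers of oligodendrocyte precursors, at 0.555, followed by proliferating cells at 0.659, against 0.828 from a flat line.

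For Fgfr1 and Fgf2 no list was nearer than a flat line. Their nearest lists were microglia and macrophages for Fgfr1, at 0.547 against 0.512, and endothelial cells for Fgf2, at 0.436 against 0.416. The part of cell make-up in the level of any member was not tested.

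**Figure D5:**
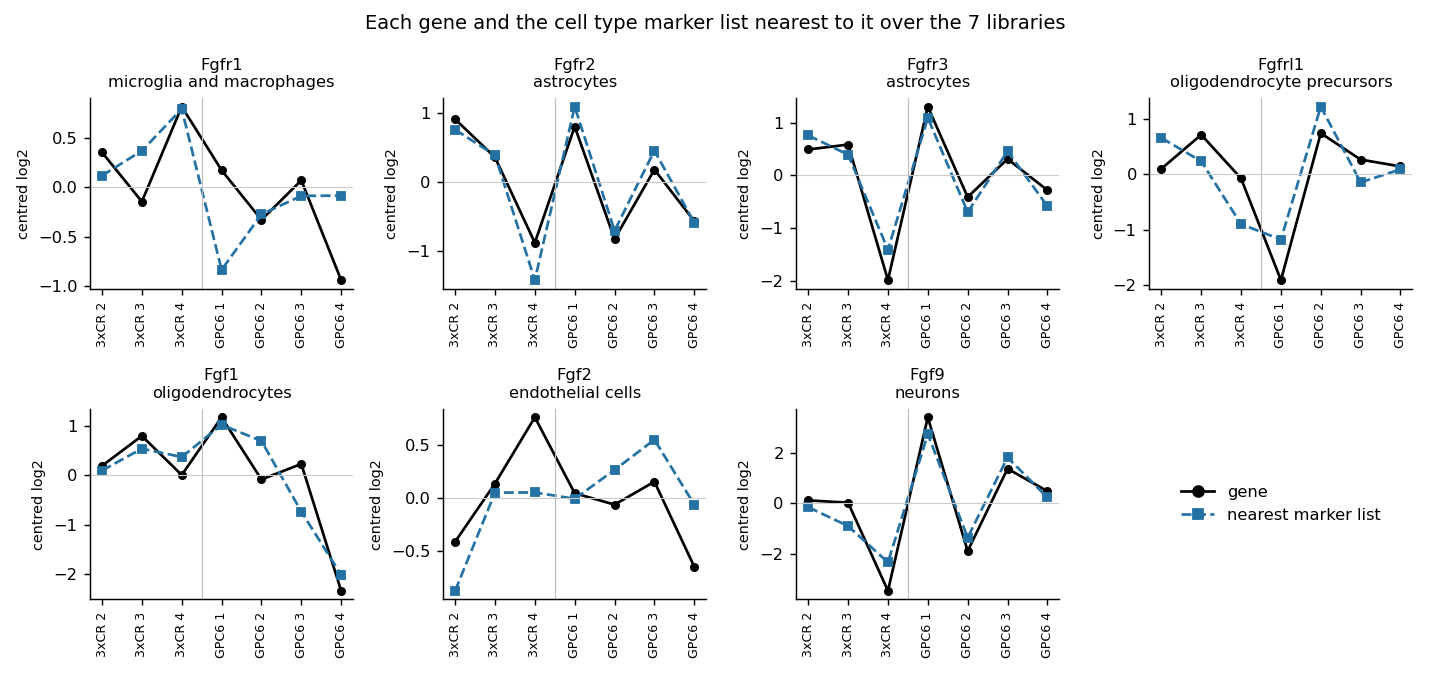
Log2(normalized count + 1) of each of 7 genes after its mean was taken off (black), beside the score of the cell type marker list nearest to it (blue, dashed), in the 7 libraries, 3xCR left and GPC6 right of the grey line. Lines only join the points of a series, since libraries have no order. Fgfr2 and Fgfr3 run close to the astrocyte score. Fgf1 and Fgf9 are nearest to oligodendrocytes and neurons but less closely, whereas Fgfr1 and Fgf2 are no nearer to their list than to 0.

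The rest of the pathway was read from 8 lists of genes. Of 14 further secreted FGF genes, 12 were in the table (Fgf4 and Fgf6 were not analysed here), and only Fgf7, a ligand made by fibroblasts, reached the mean needed for the test. It had 59.4 normalized counts in 3xCR replicate 4 and 0 to 21.6 in the others (log2 fold change -1.21, limma adjusted p = 0.792). Fgf7 passed the filter through the 3xCR libraries, with a mean of 24.6 against 9.63 in GPC6 tumors. This favours a negative value, so its sign is no support for a difference. Fgf3, Fgf5, Fgf8, Fgf10, Fgf15, Fgf16, Fgf17, Fgf20, Fgf21, Fgf22 and Fgf23 stayed below the filter, with means between 0.221 and 9.71.

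The intracellular FGF homologous factors Fgf11 to Fgf14, which bind voltage-gated sodium channels and are not secreted, were all tested, and 0 of 4 passed at an adjusted p under 0.05 or an unadjusted p under 0.05. Their median log2 fold change was 1.54, beside -0.019 over all genes tested, and all 4 had the higher mean log2 value in GPC6 tumors. Fgf12, with the highest mean count, had 416, 247 and 89.8 in 3xCR tumors, and 1462, 359, 656 and 329 in GPC6 tumors (log2 fold change 1.46, standard error 0.66, limma adjusted p = 0.73). Fgf14 had the largest log2 fold change of the list, 1.73, and Fgf11 the lowest, 0.49. The neuron marker list, for which GPC6 tumors had the higher mean in 10 of 10 genes, stood highest in the same GPC6 replicates 1 and 3 as Fgf12, Fgf13 and Fgf14. Its part in these values was not tested.

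The klotho co-receptors serve the endocrine FGFs. Kl, which choroid plexus is known to express, had 158 normalized counts in GPC6 replicate 1 and 83.7 in 3xCR replicate 3, against 1.98 to 16.0 elsewhere (log2 fold change -0.86, limma adjusted p = 0.865), and its direction turned with edgeR and TMM (0.25) and with DESeq2 (0.30). These libraries also had the highest scores of the choroid plexus list, 2.69 and 2.19, and Klb was below the filter. Among 8 FGF carriers and membrane proteins that bind FGF receptors, 0 passed in either direction and the median log2 fold change was 0.26. Ncam1, a cell adhesion molecule that can engage FGF receptors, had the highest mean count of the list (2636 normalized counts, log2 fold change 0.30). Flrt1 had the highest log2 fold change of this list (1.25) and the carrier Fgfbp3 the lowest (-0.17).

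Downstream of the receptors, 0 of 16 adaptors and transducers passed, with a median log2 fold change of 0.12. Plcg1, which encodes phospholipase C gamma, had 514 to 624 normalized counts in 3xCR and 656 to 761 in GPC6 tumors (log2 fold change 0.32, limma adjusted p = 0.73), so its groups did not overlap. It was the 1 gene of the 16 apart with higher values in GPC6, beside 2.8% of all genes. Another 1 was apart with lower values, beside 3.52%. Ptpn11, the phosphatase SHP2, had the highest mean count (log2 fold change -0.036), and Shc1 had the lowest log2 fold change (-0.82). Frs2, the docking protein of FGF receptors, had 311 to 338 in 3xCR and 270 to 675 in GPC6 tumors.

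FGF-induced targets and feedback inhibitors serve as a readout of the pathway, though other receptors of the RAS-MAPK cascade and the loss of NF1 can raise them as well. Of 15 listed, 14 were tested (Spry3 was not analysed here) and 0 passed at an adjusted or an unadjusted p under 0.05. The mean log2 value was higher in GPC6 tumors for 3 of the 14, beside 48.3% of all genes, and the median log2 fold change was -0.21. Ccnd1, cyclin D1, had both the highest mean count and the lowest log2 fold change (-1.08, standard error 0.66, limma adjusted p = 0.73). Its normalized counts were 8117, 9924 and 11424 in 3xCR tumors, and 1298, 11769, 5546 and 5256 in GPC6 tumors. The MAPK phosphatase Dusp6 had 998 to 1320 in 3xCR and 694 to 1298 in GPC6 tumors. The inhibitor Spry4 ranged from 115 to 817 and was high in 3xCR replicate 2 and GPC6 replicate 2. Etv1, an ETS transcription factor, had the largest value of the list (0.43). GPC6 replicate 1, the library with the lowest sum of proliferation markers, had the lowest score of this target list, -0.53, while GPC6 replicate 2 had the highest, 0.40.

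The heparan sulfate on which FGF binding depends was read from 13 enzymes and 13 proteoglycans. Of the synthesis and editing enzymes 0 of 13 passed, with a median log2 fold change of 0.00068. Sulf2, which removes sulfate groups that FGF binding uses, had the highest mean count, with 7977 normalized counts in 3xCR replicate 2, 13721 in GPC6 replicate 2 and 2277 to 3737 in the others. Ndst4 had the highest log2 fold change (2.00) and Sulf1 the lowest (-0.31). Ndst4 entered the fit through the GPC6 libraries, since its mean normalized count was 6.28 in 3xCR and 68.4 in GPC6 tumors, with 203 in GPC6 replicate 3. Of the proteoglycans 0 of 13 passed at an adjusted p under 0.05, and the median log2 fold change was -0.24. An unadjusted p under 0.05 was reached by 2 of them, both with higher values in GPC6 tumors, beside 2.74% of all genes in that direction: the overexpressed Gpc6 itself (log2 fold change 2.85, limma adjusted p = 0.73) and Gpc3 (1.74, limma adjusted p = 0.73). Gpc3 had 35.1, 57.7 and 11.05 in the 3xCR libraries and 92.7, 38.5, 205 and 122 in the GPC6 libraries, so the groups overlapped. Sdc3, a syndecan of neural cells, had the highest mean count (log2 fold change -0.13), and Col18a1 had the lowest log2 fold change (-0.996).

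Annotation limits what the counts of some members stand for. Counts per gene do not tell the IIIb from the IIIc splice forms of Fgfr1 to Fgfr3, which bind different ligands. Exons of Fgf2 overlap those of Nudt6 on the opposite strand over 640 bases, 9.44% of its exon length, and the strand setting of the counting is not stated. Nudt6 averaged 60.1 normalized counts over the libraries, against 14.0 for Fgf2, and its part in the reads of Fgf2 was not tested. Exons of Fgfr3 overlap the antisense gene G630022F23Rik over 998 bases. Fgfr2 shares 314 bases of exon with Ctbp2 on the same strand through a long annotated transcript, and the 2 genes averaged 378 and 417 normalized counts. Of the 50-base words in each member's transcripts, at most 2.99% occurred in transcripts of another gene, and none of those genes was another FGF receptor or ligand.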

How the data were processed

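Total RNA of 7 tumors was sequenced from TruSeq stranded mRNA libraries. Alignment by the authors used STAR 2.5.0a and mm10, reads were counted on genes with Rsamtools and GenomicFeatures, and size factors of DESeq2 1.20.0 were divided out. The strand setting and the treatment of reads of several genes are not given in the sources used here. The deposited values are these normalized counts, a signal on a linear scale without correction for gene length. All values (100%) lay within 0.01 of a whole number of reads, so reads were recovered. The table held 19282 entries, of which 25 had names turned into dates and were left out (0.254% to 0.361% of reads). A single size factor per library assumes that most genes do not change.

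Groups came from the sample titles. Groups were compared with limma 3.58.1 under R 4.3.3 (variance trend, pseudocount 1) for the 14782 genes whose normalized counts averaged 10 or more. edgeR 4.0.16 (quasi-likelihood test), DESeq2 1.42.0 and voom were run on the recovered reads, where 0, 9 and 0 genes passed after adjustment. The code of the fits was also tried on simulated counts. Their spread was set and not taken from these tumors, so that trial does not measure power for the members. Further alternatives were other pseudocounts, filters, scalings, variance models, library weights, a replicate block and leaving out libraries. Lengths came from GENCODE M21 (GRCm38, the build also called mm10), which held 96.0% of the symbols. The smallest two-sided p that an exact permutation of 3 against 4 tumors allows is 0.057. Limma p-values for a member are adjusted over all genes tested.

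The members, gene lists and alternatives were chosen with earlier results of these data known. Named were all members, Gpc6, in each FGF list the gene of highest mean count and the extremes of log2 fold change, list genes at an unadjusted p under 0.05, and the 2 genes of smallest root mean square difference to each tested member. Frs2, Plcg1, Dusp6, Spry4, Fgf13, Klb, Nudt6, Ctbp2 and G630022F23Rik were named after their values were seen. Some genes of the adaptor list that the rule would name are not reported here. The marker lists are summarised in the closing section.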

Additional observations from a re-analysis of the deposited data

Results flagged for a closer look

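Among the 4 GPC6 libraries, 22 quantities were examined for a library far from the others: the 9 members, Gpc6, the scores of the FGF lists and the shares of the kinase receptors. Dixon's test at the 95% level compares the distance between an extreme library and its neighbour with the range of all 4, and chance passes it in about 1 in 20 quantities (1.1 of 22). This held for 1 of them, the share of Fgfr2 in the kinase receptors, which was 9.54% in GPC6 replicate 2 and 12.2% to 12.6% in the other GPC6 libraries. The 3xCR libraries ranged from 7.37% to 16.8%. Which quantities pass depends on the scale of the values. On the linear scale Fgf18 also had a library far from the others, with 24.7 normalized counts in GPC6 replicate 1 and 1.98 to 5.32 in the other GPC6 libraries.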

How the results depend on the processing

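In all 22 alternatives 0 members passed an adjusted or an unadjusted p under 0.05. Over all genes the count was 0, except for 1962 with library weights, which gave 3xCR replicate 3 and GPC6 replicate 3 weights of 8.71 and 4.47 and the others 0.301 to 0.849, and 9 with DESeq2. With 1 library left out it was 0 each time. Directions of log2 fold changes turned with library weights for Fgfr1 (0.023) and Fgfr3 (-0.19). With 1 library left out they ranged from -0.73 to 0.16 for Fgfr2 (0.16 without 3xCR replicate 2, 0.010 without GPC6 replicate 2), from -0.31 to 0.98 for Fgfr3 and from -0.58 to 0.010 for Fgf2 (-0.31 and 0.010 without 3xCR replicate 4). They ranged from -0.75 to 0.14 for Fgfrl1 (0.14 without GPC6 replicate 1) and from -1.07 to 0.11 for Fgf1 (0.11 without GPC6 replicate 4). The cause was not tested. Over all alternatives Fgf9, which entered the fit through the GPC6 libraries, ranged from 0.77 to 2.86. The replicate block gave 0 calls and 678 genes at an unadjusted p under 0.05, and turned Fgfrl1 (0.14), as GPC6 replicate 1 has no partner in that fit. Deviations of same-numbered libraries from their group means had correlations of -0.19, 0.12 and 0.30. Whether the numbers pair the samples was not tested, and the labels do not say so. In the order of levels per kb, 2 of 9 places changed with the longest transcript, 4 without GPC6 replicates 1 and 2, and 0 to 4 with 1 library left out. Depth limits Fgfr4, Fgf2, Fgf18 and Fgf9, of which the libraries held 34, 98, 39 and 153 reads.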

Other observations

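The marker lists set beside the FGF genes differed between the groups as follows, with 0 genes at an adjusted p under 0.05 by limma in any list. The median log2 fold change, GPC6 minus 3xCR, was 2.65 over 10 neuron markers. Of these, 3 of 10 were higher at an unadjusted p under 0.05, beside 2.74% of all genes. Without GPC6 replicate 1 the median was 1.88, and over all fits it ranged from 1.48 to 3.35. Microglia and macrophage markers had a median of -0.67 (range over fits -1.14 to -0.49), with 5 of 9 lower at an unadjusted p under 0.05, beside 1.92% of all genes, and 5 of 9 without overlap of the groups, beside 3.52%. The counts under an unadjusted p of 0.05 varied between fits. They were 0 for neurons and 1 for microglia and macrophages without 3xCR replicate 4, beside 121 of 14782 genes. With library weights they were 10 and 6, beside 5105 of 14782.

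The direction of other marker lists turned between fits. The median was 0.11 over 10 astrocyte markers (range -0.36 to 0.44) and -0.014 over 8 markers of oligodendrocyte precursors (-0.44 to 0.37). Proliferation markers had a median of -0.67, which became 0.29 without GPC6 replicate 1. Ependymal markers had -0.12 (-0.80 to 0.68) and mural and fibroblast markers -0.89 (-1.37 to 0.047). The sign held for oligodendrocyte markers at -0.68 (-1.998 to -0.0044), for endothelial markers at 0.40 (0.087 to 0.67, with 1 of 8 under an unadjusted p of 0.05) and for 6 choroid plexus markers at -1.73 (-2.95 to -0.11). Of the hypothalamic markers, Oxt had 428 normalized counts in GPC6 replicate 1 and 0 to 2.66 elsewhere and Avp had 541 against 0 to 7.10, so they passed the filter through that library and no median is given.

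Among the FGF lists, the median log2 fold change ranged from 0.83 to 1.96 over the fits for the intracellular homologous factors and from -0.35 to -0.11 for the FGF-induced targets and feedback inhibitors. For the other lists the sign turned, with ranges of -0.029 to 0.54 for carriers, -0.097 to 0.21 for adaptors, -0.052 to 0.25 for heparan sulfate enzymes and -0.42 to 0.094 for proteoglycans. The proteoglycan median was 0.056 without 3xCR replicate 4, and the medians of carriers and adaptors were -0.029 and -0.078 without GPC6 replicate 1. Fgf7, which passed the filter through the 3xCR libraries, ranged from -2.37 to 0.27 and Kl from -2.16 to 0.30. These ranges were computed after the values were seen.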
